A study of Mus musculus with 33 samples.

Results

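The binding of Gata4 in cells given Gata4 alone was compared with the binding of Tbx5 in cells given Tbx5 alone. The assay was ChIP-seq, in which DNA bound by a factor is pulled down with an antibody and sequenced. The comparison was set by the sample labels and used 7 of the 33 libraries of the series: Gata4 alone numbers 1 to 3 against Tbx5 alone numbers 1 to 3, with Gata4 alone number 4 as a check only. The cells were an immortalized fibroblast line from neonatal mouse heart, strain Cd-1, genotype alpha-MHC-GFP, which expresses a large T antigen that cre can excise. They were infected with a retrovirus for Gata4 or a retrovirus for Tbx5, cultured with the TGF-beta inhibitor sb431542 and the Wnt inhibitor xav939, and harvested unsorted at day 2. Cells of the same line that received Gata4, Mef2c and Tbx5 together served to set the same contrast beside it. Cells that the virus did not reach are therefore part of every sample. Occupancy in more cells and stronger occupancy per cell cannot be told apart. The cell type was not checked against expression markers, since only binding was measured.

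Gata4 is a zinc finger factor that binds GATA motifs, and Tbx5 is a T-box factor that binds T-box elements. Both act at enhancers of the developing heart, where they can bind each other and share target genes. Both are among the factors used to turn fibroblasts into cells that resemble cardiomyocytes, and cardiac fibroblasts are known to express both from their own genes. ChIP of uninfected cells was not analysed here. Both antibodies were goat polyclonal C-20 antibodies of the same supplier, and factor, antibody and infected cells differ together in the comparison.

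The values were raw read counts over 30815 regions on mm9, each 201 to 1484 bp wide with a median of 234 bp. A library held 454716 to 591033 counts for Gata4 alone 1 to 3, 222761 for Gata4 alone 4 and 334761 to 485430 for Tbx5 alone. The input chromatin of the same cells was 1 library each, with 127871 counts for the Gata4 cells and 97474 for the Tbx5 cells. Libraries of a group are called biological replicates by the labels, but no label says that they came from separate infections, so p-values measure the spread between these libraries. The regions carry no gene names and no genome of this build was used, so regions are given by position. CPM scales each count to its library's sum over all regions, so a level is a share of the reads in these regions and not an absolute occupancy.

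At most regions with enough reads to test, the Gata4 and Tbx5 signals differed when each factor was expressed alone. Of 16987 regions with enough reads to test, 14132 differed (83.2% of those tested), 7326 with more Gata4 (43.1%) and 6806 with more Tbx5 (40.1%). These are called Gata4-higher and Tbx5-higher regions below. The median log2 fold change, Gata4 over Tbx5, was 2.26 at Gata4-higher regions and -2.23 at Tbx5-higher regions. Calls rest on edgeR's quasi-likelihood F test at a Benjamini-Hochberg adjusted p under 0.05. Over all tested regions the median log2 fold change was 0.21, and 0.40 with scaling by library totals, which left 14235 regions called. A difference beyond 2-fold was called at 10969 regions (64.6%), 5614 with more Gata4 (33%) and 5355 with more Tbx5 (31.5%).

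Most called regions separated the single libraries completely, though these are the libraries that made the calls, so this is a description and not further support. At 13672 of the 14132 called regions, every library of a group lay beyond every library of the other, whereas such separation was seen at 84.1% of all tested regions. Differences beyond 4 on the log2 scale were seen at 919 regions. The filter, which asks for enough reads in at least 3 of the 6 libraries of either kind, left out 13828 regions of the table. A region can pass it through the libraries of 1 factor, so the share called holds for the tested regions only. Without the filter, 16671 of all 30815 regions were called. Differences relative to own input rest on 1 shallow input library of each kind of cell. The spread between inputs is unknown, so for single regions only the size of such differences is given below, without a test. How many of the 14132 calls would hold relative to input cannot be told from these inputs.

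**Figure D1:**
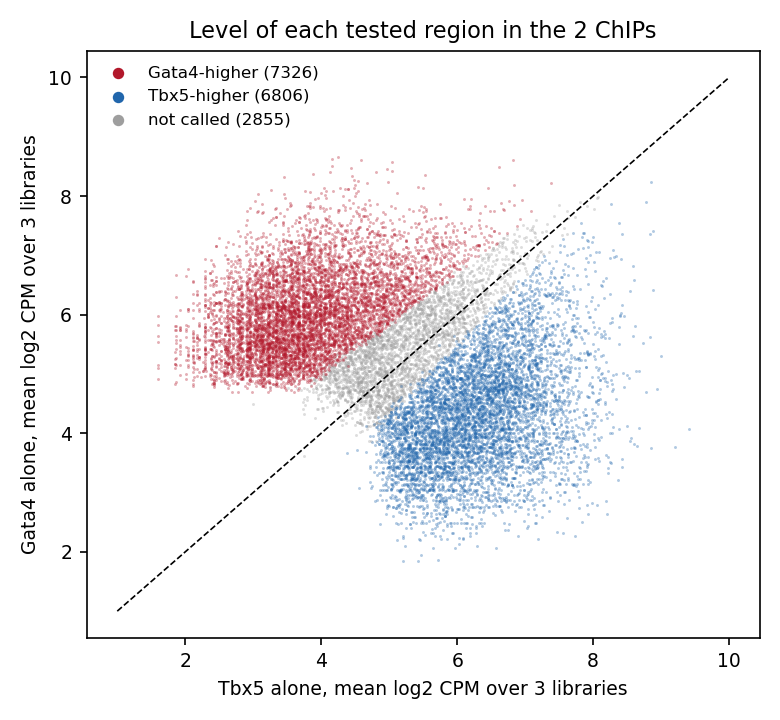
Mean log2 CPM of every tested region in Gata4 alone (vertical) against Tbx5 alone (horizontal), 3 libraries each, with colours for the 7326 Gata4-higher, 6806 Tbx5-higher and 2855 uncalled regions. The called regions form arms on either side of the dashed line of equality, the grey band lies above that line since the TMM scaling of the test is not part of the plotted CPM, and the filter on low counts leaves the lower left corner empty.

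Regions with the largest Gata4 excess had strong Gata4 signal and almost no Tbx5 reads. Chromosome 11, 104829799 to 104830074, had 192, 338 and 266 CPM in Gata4 alone 1 to 3, against 6.18, 8.96 and 2.35 CPM in Tbx5 alone 1 to 3. Its log2 fold change was 5.34 ± 0.38 (SE, adjusted p = 1.38e-14), with 414 Gata4 reads against 7 Tbx5 reads over the groups. Relative to own input it was 4.2, with 5 input reads in Gata4 cells and 2 in Tbx5 cells. The 3 Gata4 libraries lay above all Tbx5 libraries, and the check library Gata4 alone 4 had 8.98 CPM, far below the other Gata4 libraries. Chromosome 5, 107457679 to 107457968, had 317, 218 and 152 CPM for Gata4 and 2.06, 8.96 and 4.71 CPM for Tbx5. The log2 fold change there was 5.33 ± 0.42 (adjusted p = 1.4e-13), and again the groups did not overlap.

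A second region of chromosome 5, 107876951 to 107877176, had 226, 218 and 196 CPM for Gata4, against 6.18, 2.99 and 4.71 CPM for Tbx5. Its log2 fold change was 5.24 ± 0.37 (adjusted p = 1.83e-14), and the 3 Gata4 libraries lay close together and above all Tbx5 libraries. The other 5 Gata4-higher regions of this ranking had log2 fold changes of 4.99 to 5.17, with Gata4 means of 193 to 319 CPM and Tbx5 means of 4.63 to 8.49 CPM. The inputs held only 1 to 8 reads at each of these 8 regions, so their folds relative to own input are uncertain and were not tested. No region of the 8 changed sign in any setting run.

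Regions with the largest Tbx5 excess showed the reverse, and their folds were larger in this ranking. Chromosome 9, 42811977 to 42812315, had 4.14, 3.38 and 2.2 CPM in Gata4 alone 1 to 3, against 258, 326 and 297 CPM in Tbx5 alone 1 to 3. That is 5 Gata4 reads against 360 Tbx5 reads, a log2 fold change of -6.52 ± 0.35 (adjusted p = 6.29e-17). Gata4 alone 4 had 49.4 CPM there, close to its own input at 54.7 CPM, while the other 3 Gata4 libraries were below that input. Chromosome 3, 95346127 to 95346517, had 2.07, 3.38 and 4.4 CPM for Gata4 and 237, 218 and 264 CPM for Tbx5 (log2 fold change -6.24 ± 0.37, adjusted p = 2.73e-16). At chromosome 7, 4905310 to 4905630, there were 0, 5.08 and 4.4 CPM for Gata4 and 225, 248 and 207 CPM for Tbx5 (log2 fold change -6.15 ± 0.39, adjusted p = 1.35e-15). No library of the Gata4 group came near the Tbx5 group at either region. The other 5 of this ranking lay between -6.07 and -5.7. Their Gata4 means were 3.64 to 11.7 CPM and their Tbx5 means 194 to 588 CPM. The inputs held only 0 to 7 reads at each of these 8 regions, so folds relative to own input are uncertain and were not tested. No region of the 8 changed sign in any setting run.

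Most of the tallest sites of each factor, drawn from the regions called for it, had few reads of the other. Uncalled regions could not enter, so low reads of the other factor are partly set by this choice. The highest Tbx5 signal was at chromosome 2, 166224596 to 166225268, with 20.7, 6.77 and 17.6 CPM for Gata4 and 562, 813 and 673 CPM for Tbx5. The log2 fold change was -5.68 ± 0.27 (adjusted p = 1.99e-18), and own inputs held 109 CPM in Gata4 cells and 71.8 CPM in Tbx5 cells. Gata4 was thus below the input of its own cells in all 3 libraries. Next came chromosome 17, 73371686 to 73372265, at 12.4, 5.08 and 17.6 CPM for Gata4 and 538, 660 and 565 CPM for Tbx5 (log2 fold change -5.83 ± 0.28, adjusted p = 1.99e-18). The site on chromosome 15, 38496672 to 38497630, had 60, 23.7 and 33 CPM for Gata4 and 480, 550 and 494 CPM for Tbx5 (log2 fold change -3.87 ± 0.25, adjusted p = 1.36e-15). Of these 3 sites it had the most Gata4 reads, 58 over the group. The last of the 5 tallest, chromosome 15, 103135687 to 103135975, had 78.6, 113 and 61.6 CPM for Gata4, above its own input at 31.3 CPM in every library, and 350, 636 and 461 CPM for Tbx5. Its log2 fold change of -2.63 (adjusted p = 2.16e-12) was -2.45 relative to own input, with 4 input reads in each kind of cell.

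Among the tallest Gata4 sites, the highest mean belonged to a region at which the Gata4 libraries disagreed. Chromosome 1, 23539944 to 23540760, had 78.6, 648 and 730 CPM in Gata4 alone 1 to 3, against 30.9, 2.99 and 23.5 CPM in Tbx5 alone 1 to 3. Its log2 fold change of 4.38 ± 1.2 had an adjusted p of 0.0249. Without Gata4 alone 2 or 3 the adjusted p was 0.0683 or 0.0649, and without Tbx5 alone 1, 2 or 3 it was 0.0786, 0.0704 or 0.0802. The log2 fold change without these was 4.08, 4.05, 4.78, 3.87 and 4.44 in that order. Without Gata4 alone 1 it was 4.97 (adjusted p = 1.37e-21). The inputs differed there too, with 14 reads (109 CPM) in Gata4 cells and 1 read (10.3 CPM) in Tbx5 cells. Relative to own input the log2 fold change was only 0.79, and 1 library of each input allows no test.

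The same libraries stood apart on the Y chromosome. Its 5 regions, which did not pass the filter on low counts, summed to 45.5, 284 and 260 CPM in Gata4 alone 1 to 3 and to 18 CPM in Gata4 alone 4. Tbx5 alone 1 to 3 had 14.4, 11.9 and 18.8 CPM there, and the inputs had 62.6 CPM in Gata4 cells and 30.8 CPM in Tbx5 cells. Gata4 alone 2 and 3 were thus high at these regions while Gata4 alone 1 was below its input. Without Gata4 alone 1 the comparison called 14704 regions, and without chromosomes X and Y it called 13948.

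The other tall Gata4 sites were high in all 3 Gata4 libraries. Chromosome 8, 129851984 to 129852809, had 321, 474 and 429 CPM for Gata4 and 10.3, 14.9 and 25.9 CPM for Tbx5 (log2 fold change 4.41 ± 0.29, adjusted p = 3.19e-15). Chromosome 9, 89854866 to 89856349, which at 1484 bp is the widest region tested, had 230, 491 and 473 CPM for Gata4 and 24.7, 26.9 and 40 CPM for Tbx5. Its log2 fold change was 3.53 ± 0.29 (adjusted p = 4.49e-13), but only 1.4 relative to own input. The input of Gata4 cells had 117 CPM there and that of Tbx5 cells 30.8 CPM. Gata4 was above its own input at both regions in each of the 3 libraries.

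Some regions were bound strongly and alike in both ChIPs. Of 2855 regions that were not called, 1319 had a 95% interval of the log2 difference within -1 and 1 (limma-trend on log2 CPM). The intervals are for single regions, not adjusted for their number, and the prior count draws differences at low counts toward 0. They do not exclude a difference beyond 2-fold at all 1319 regions together. The strongest was chromosome 8, 35160316 to 35161324, with 275, 254 and 227 CPM for Gata4 and 262, 281 and 257 CPM for Tbx5. The limma interval of its log2 difference was -0.54 to 0.07, and the libraries of the groups overlapped. Own inputs had 78.2 CPM in Gata4 cells and 82.1 CPM in Tbx5 cells there, below each of the 6 ChIP libraries.

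Chromosome 3, 151692117 to 151692871, had 195, 262 and 295 CPM for Gata4 and 245, 308 and 240 CPM for Tbx5, with an interval of -0.58 to 0.10. Chromosome 15, 95761736 to 95762360, had 242, 191 and 218 CPM for Gata4 and 276, 275 and 217 CPM for Tbx5, with an interval of -0.72 to -0.05. That interval leaves out 0, and this region was called by limma-trend (adjusted p = 0.0304) and by edgeR without Tbx5 alone 3 (adjusted p = 0.0406), though not with all 6 libraries (adjusted p = 0.0587). Gata4 alone 4 had 126, 49.4 and 85.3 CPM at these 3 regions, below the other Gata4 libraries at each.

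**Figure D2:**
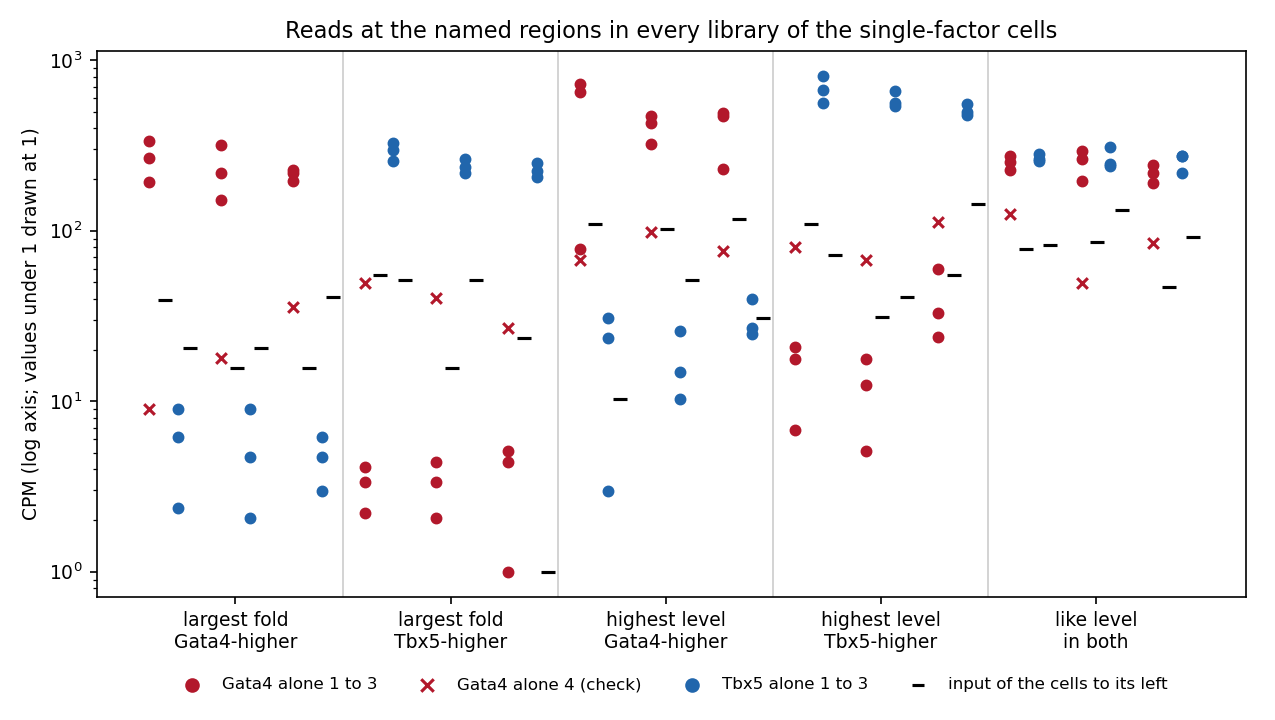
CPM (log axis) in each library at the first 3 regions of each ranking: red points are Gata4 alone 1 to 3, crosses Gata4 alone 4, blue points Tbx5 alone 1 to 3, and bars the input library of the cells drawn to their left. In the first 4 panels the 3 red and 3 blue points of a region do not mix, and in the last panel they lie between 191 and 308 CPM.

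Among the tested regions with the most reads, Tbx5-higher calls outnumbered Gata4-higher ones. The tested regions were split into 5 bins of nearly equal size by their level over the 6 libraries. These libraries also made the calls, and the level was not divided by the width of the region, so the bins are a description. In the bin with the highest level, 1147 regions were Gata4-higher (33.8% of the bin, against 43.1% of all tested) and 1871 Tbx5-higher (55.1%, against 40.1%). In the bin with the lowest level, 1583 were Gata4-higher (46.6%) and 1055 Tbx5-higher (31%). The Gata4 share of the calls fell from bin to bin, from 60% at the lowest level through 57.9%, 55.4% and 49.6% to 38% at the highest.

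The counts of every Tbx5 library were more concentrated than those of every Gata4 library. The 3082 regions with the most reads in a library held 36.3, 39.3 and 36.2% of the counts in Gata4 alone 1 to 3, against 43.4, 45.3 and 42.7% in Tbx5 alone 1 to 3. The groups did not overlap, and the mean difference, Gata4 minus Tbx5, was -6.5 percentage points. The exact two-sided permutation test gave p = 0.1, the smallest that 3 libraries against 3 allow, so this design cannot pass a threshold of 0.05. Tbx5-higher regions were somewhat wider, with a median of 260 bp for Gata4-higher and 291 bp for Tbx5-higher regions, and 6.89% and 9.84% of them reached 500 bp (8.62% of all tested).

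These lists of 3082 regions were then compared between pairs of libraries. A Gata4 alone library and a Tbx5 alone library shared 9.6 to 13.2% of their lists (9 pairs), and a list holds 10% of all regions. Both shared more with the inputs, at 20.7 to 21.8% for Gata4 alone and 17.7 to 23.2% for Tbx5 alone. Pairs of Gata4 alone libraries shared 65.8 to 75.3% and pairs of Tbx5 alone libraries 76.8 to 81.1% (3 pairs each). Every pair across factors thus shared less than every pair within a factor.

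In cells that received all 3 factors, including Mef2c, the lists shared more. Gata4 and Tbx5 libraries of those cells shared 31.1 to 47.4% of their lists (20 pairs), and every such pair shared more than any pair across factors in the cells with 1 factor. Sharing with the inputs of the cells with 1 factor was higher too, at 27.5 to 31.7% for Gata4 and 22.8 to 28.9% for Tbx5, and its part in this was not tested. Sharing with the inputs of the cells with all 3 factors is not given here. With group means in place of single libraries, the shared part was 11% alone and 40.9% with all 3 factors. Ranking by reads per base of the region lowered it to 4.32% alone and 23.7% with all 3 factors. Each library enters several pairs, so no test was made. Of the 339 regions shared alone, 26 were Gata4-higher, 151 Tbx5-higher and 162 not called, and their median width was 516 bp, against 340 bp for the rest of the Gata4 list and 349 bp for the rest of the Tbx5 list.

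Called regions close to each other tended to have the same direction. Whether such neighbours are separate binding sites was not tested. Where neighbouring tested regions lay within 1 kb and both were called, 745 of 940 pairs had the same direction (79.3%), 304 of them Gata4-higher and 441 Tbx5-higher. The share was 60.5% at gaps of 1 to 5 kb, 56.8% at 5 to 20 kb, 53.8% at 20 to 100 kb and 53.1% beyond 100 kb. Left out in turn, each library gave 80.1 to 82.5% within 1 kb.

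The longest unbroken runs belonged to Tbx5. On chromosome 10, 8 consecutive Tbx5-higher regions with gaps of at most 20 kb spanned 57.5 kb from 76903788 to 76961325, with log2 fold changes of -5 to -1.86. On chromosome 19, 7 Tbx5-higher regions spanned 26.4 kb from 10353222 to 10379665, with log2 fold changes of -4.73 to -1.47. A run of 6 Gata4-higher regions lay on chromosome 11, from 86438895 to 86471045, with log2 fold changes of 0.90 to 1.99. Runs of 4 or more regions numbered 17, 1 and 2 for Gata4 and 35, 15 and 5 for Tbx5 at 4, 5 and at least 6 regions. These runs were chosen after their values were seen.

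Opposite calls could still be very close together. Among neighbours within 1 kb, 195 pairs were called in opposite directions, and at 27 of these both log2 fold changes were beyond 2 in size. The closest such pair, also chosen after its values were seen, lay on chromosome 4 with a gap of 31 bp. Its left region, 41706911 to 41707117, had 49.7, 23.7 and 46.2 CPM for Gata4 and 6.18, 5.97 and 4.71 CPM for Tbx5 (log2 fold change 2.58 ± 0.52, adjusted p = 3e-05). Its right region, 41707149 to 41707617, had 22.8, 15.2 and 35.2 CPM for Gata4 and 144, 155 and 151 CPM for Tbx5 (log2 fold change -2.8 ± 0.3, adjusted p = 2e-10). Tbx5 was higher in the right region in all 3 libraries, while the Gata4 values of the regions overlapped between libraries.

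**Figure D3:**
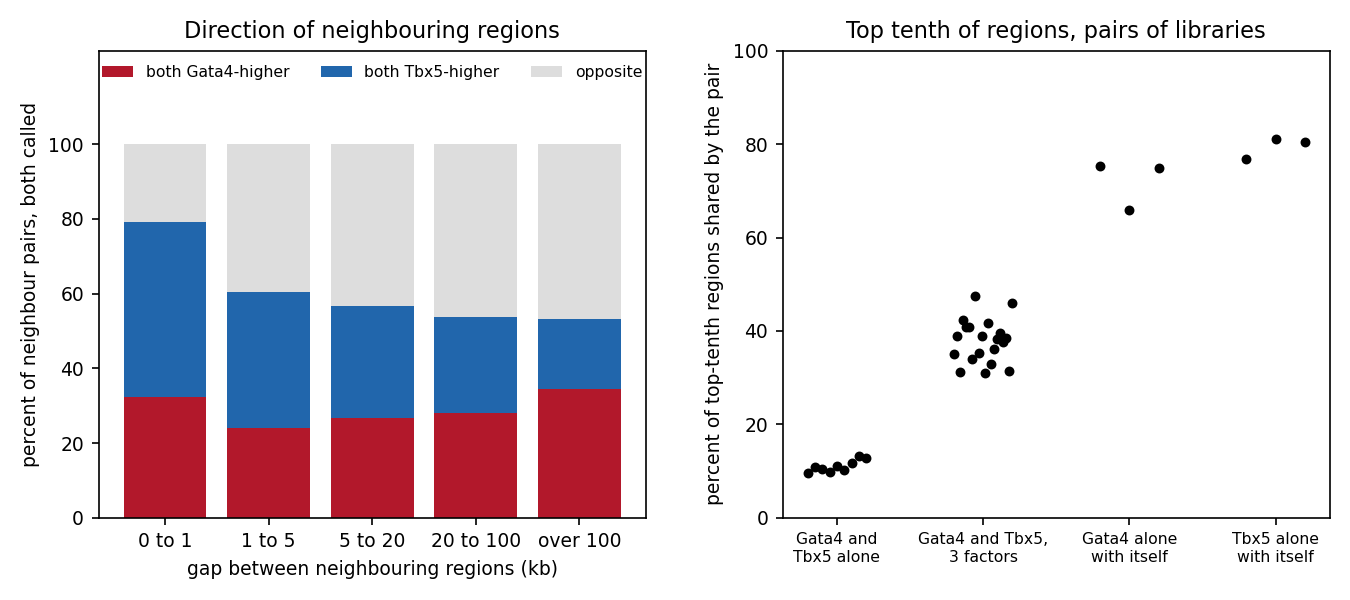
Left, percent of neighbouring pairs of called regions that were both Gata4-higher, both Tbx5-higher or opposite, by the gap between them in kb. Right, percent of the 3082 regions with the most reads shared by a pair of libraries, 1 point per pair, with 9.6 to 13.2% for Gata4 and Tbx5 alone and 31.1 to 47.4% with all 3 factors.

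By chromosome, Gata4-higher regions made up 37 to 49.2% of the tested regions and Tbx5-higher regions 33.9 to 46%. Gata4-higher regions had their lowest share on chromosome 7 (285 of 771) and their highest on chromosome 18 (288 of 585). Tbx5-higher regions had their lowest share on the X chromosome (79 of 233). Every chromosome with tested regions had regions of both kinds.

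As a share of counts, each factor was below the input of its own cells where the other was above it. The Gata4-higher regions held 54.9 ± 2.75% of the Gata4 alone counts (SD, n = 3), against 23.5% of their own input (95% Poisson interval 23.2 to 23.7). They held 11 ± 0.827% of the Tbx5 alone counts, against 26.1% of the input of Tbx5 cells (25.8 to 26.5). The Tbx5-higher regions held 15.1 ± 1.19% of the Gata4 alone counts, against 24% of their own input (23.8 to 24.3). They held 62.6 ± 1.19% of the Tbx5 alone counts, against 25.2% of the input of Tbx5 cells (24.9 to 25.5). These regions were chosen on the ChIP libraries, so the ChIP shares are a description. Shares of a fixed total also fall in some regions whenever they rise in others: with TMM-scaled CPM, Gata4 stood at 0.854 times its input at Tbx5-higher regions (0.63 as shares) and Tbx5 at 0.721 times its input at Gata4-higher regions (0.422 as shares). The inputs, which took no part in the choice, gave nearly equal shares to both kinds of region.

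In its shares of counts the check library was close to its input. Gata4 alone 4 had 24.2% of its counts in Gata4-higher regions and 24% in Tbx5-higher regions. Its list of 3082 regions shared 23 to 25.2% with the other Gata4 alone libraries, 21.4 to 23.3% with the Tbx5 alone libraries and 34.4% with the input of Gata4 cells. With the Gata4 samples of the cells with all 3 factors it shared 33.4 to 39.1%, more than with its input in 4 of 5. When it was kept in its group, 13397 regions were called, 7212 with more Gata4 and 6185 with more Tbx5.

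**Figure D4:**
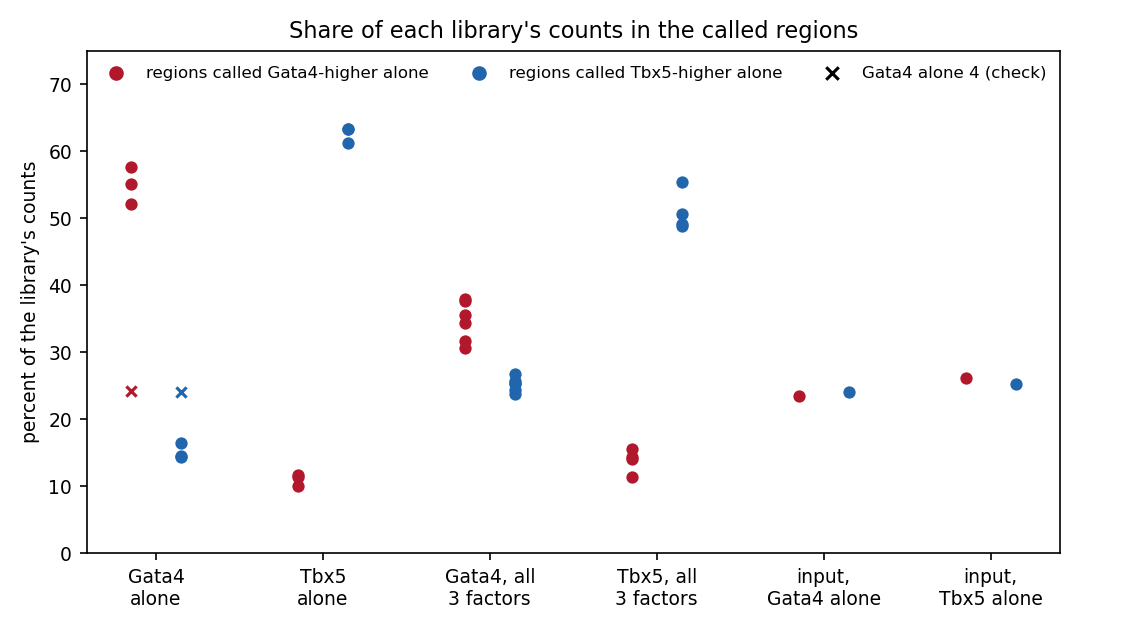
Percent of each library's counts that fell in regions called Gata4-higher (red) or Tbx5-higher (blue) in the cells with a single factor, 1 point per library, with Gata4 alone 4 as crosses. Gata4 alone 1 to 3 lie at 52.1 to 57.6% in red and Tbx5 alone at 61.2 to 63.3% in blue, while Gata4 alone 4 and the inputs lie between 23.5 and 26.1% in both colours. The libraries with all 3 factors stand between them and the inputs in the colour of their own factor.

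The same contrast in cells with all 3 factors gave the direction in libraries that took no part in the first comparison. There, Gata4 was represented by 6 libraries, of which numbers 1 and 6 agree within sampling noise (chi-square p = 0.151, 1.01 per degree of freedom, against 1.351 to 3.095 for the other pairs) and were summed as 1 sample, leaving 5, and Tbx5 by 4. Of 25010 regions tested, 12500 were called (50%), 5855 Gata4-higher (23.4%) and 6645 Tbx5-higher (26.6%). Same-numbered libraries of these cells were correlated, which that fit leaves out. With replicate number as a block 14847 were called, 7445 Gata4-higher and 7402 Tbx5-higher. Which direction had more calls thus depended on the fit, and the counts that follow come from the fit without the block. With scaling by library totals the split was 7707 and 5642, and the median log2 fold change of all tested regions moved to 0.33, against 0.10 with TMM. Among regions tested in both kinds of cells, 4559 were Gata4-higher in both, which is 67.5% of those called alone and 93.9% of those called with all 3 factors. Another 5313 were Tbx5-higher in both, 79.7% and 96%. Opposite calls were made at 2 Gata4-higher and 12 Tbx5-higher regions.

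The difference between the factors was smaller with all 3 present. At regions Gata4-higher alone the median log2 fold change was 2.24 alone and 1.07 with all 3 factors, and at Tbx5-higher regions it was -2.22 and -1.4. Regions chosen for a large difference in some libraries tend to show a smaller one in others, so the choice was also made the other way round. That choice covered only regions also tested alone, 4856 of 5855 Gata4-higher and 5536 of 6645 Tbx5-higher ones. Regions called with all 3 factors but with few reads alone are thus left out. At the regions covered that were Gata4-higher with all 3 factors the medians were 2.43 alone and 1.37 with all 3. At the Tbx5-higher ones they were -2.32 and -1.6. The difference was larger alone at 84.5% and 81.3% of these regions. The share of counts in the regions called alone moved with this: Gata4-higher regions held 30.6 to 38% of the counts of the Gata4 libraries with all 3 factors, and Tbx5-higher regions 48.9 to 55.4% of those of the Tbx5 libraries, below every library alone except Gata4 alone 4. The part of this lower enrichment in the smaller difference was not tested.

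**Figure D5:**
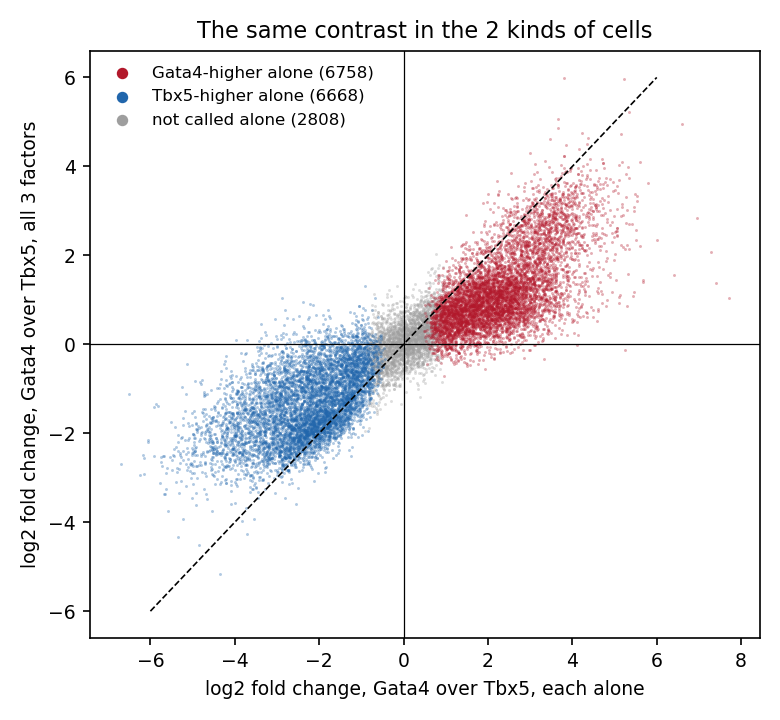
Log2 fold change, Gata4 over Tbx5, in cells with all 3 factors (vertical) against cells with 1 factor (horizontal), for the regions tested in both, coloured by their call alone. Most coloured points keep their sign, with medians of 1.07 and -1.4 on the vertical and 2.24 and -2.22 on the horizontal axis, so the cloud is flatter than the dashed line of equality.

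The change between the kinds of cells was itself tested as an interaction in a fit of both. The contrast differed at 4008 of 24952 regions (16.1%), higher alone at 1857 (7.44%) and lower alone at 2151 (8.62%). With replicate number as a block 6508 were called, 3381 higher and 3127 lower alone, so which direction had more calls turned round. With library totals it was 1463 higher and 2506 lower, and with Gata4 alone 4 kept 1265 in all. Without Gata4 alone 2 the total was 2635. Leaving out each library in turn, regions higher alone numbered 682 to 2284, with the lowest count without Tbx5 alone 1 and counts of 1238, 1185, 1172, 999, 926 and 1050 without Gata4 alone 1 and 2, three-factor Gata4 2, and three-factor Tbx5 2, 3 and 5. Regions lower alone numbered 1450 to 3360, the highest without three-factor Tbx5 4. The added viruses differ together between the kinds of cells, and their parts cannot be told apart.

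Of the 1990 Tbx5-higher regions at which the contrast shrank, 1927 had more Gata4 with all 3 factors than alone (96.8%, by group means), as had 3179 of the 4816 Tbx5-higher regions without an interaction (66%). At the 1990 regions, median levels were 11.3 CPM for Gata4 alone and 33.8 CPM for Gata4 with all 3 factors. For Tbx5 they were 101 CPM alone and 71.5 CPM with all 3. Over all Tbx5-higher regions, the median log2 CPM was 4.19 to 4.37 in Gata4 alone 1 to 3. It was 4.83 to 4.97 in the Gata4 libraries with all 3 factors and 5.04 to 5.2 in the inputs of those cells. By this median, Gata4 with all 3 factors was below the input level over all Tbx5-higher regions. By share of counts it was not: these regions held 23.7 to 26.7% of the counts of those Gata4 libraries. They held 22.4 to 25% of the counts of the inputs of those cells. The input level at the 1990 regions alone is not given here. At the 1734 Gata4-higher regions with an interaction, Gata4 had a median of 73.8 CPM alone and 31.5 CPM with all 3, and Tbx5 8.52 CPM alone and 13.9 CPM with all 3. Tbx5 was higher with all 3 factors at 1539 of these (88.8%) and Gata4 at 134, while without an interaction Tbx5 was higher with all 3 at 2798 of 5592 (50%). The interaction chose these regions, so the levels describe them and are not a further test.

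The clearest change was at the Tbx5 site on chromosome 9, 42811977 to 42812315. Gata4, with 3.24 ± 0.978 CPM alone (SD, n = 3), had 104 ± 21.2 CPM with all 3 factors (n = 5, lowest 73 and highest 131). Tbx5 had 293 ± 34.2 CPM alone (n = 3) and 191 ± 33.5 CPM with all 3 (n = 4). The interaction was -5.41 ± 0.49 on the log2 scale (adjusted p = 6.53e-10), and every Gata4 sample with all 3 factors lay above every Gata4 library alone, the check library at 49.4 CPM included. Chromosome 5, 35963704 to 35964007, had 4.14, 10.2 and 4.4 CPM for Gata4 and 229, 197 and 214 CPM for Tbx5 when alone. With all 3 factors it had 156 ± 48.9 CPM for Gata4 (n = 5) and 183 ± 32.5 CPM for Tbx5 (n = 4), and the factors no longer differed beyond the threshold (adjusted p = 0.0682, interaction -4.66 ± 0.47, adjusted p = 8.6e-09). At chromosome 6, 117633609 to 117634004, by contrast, Tbx5 had 50 ± 24 CPM alone and 7.4 ± 2.72 CPM with all 3 factors. Gata4 had 3 reads there in all 3 libraries alone, a count ratio of Tbx5 over Gata4 of 24.2 (95% interval 7.87 to 120), and 9.39 ± 5.73 CPM with all 3 factors.

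Interactions in the other direction were led by regions with no Tbx5 read in any of the 3 Tbx5 alone libraries, as at 7 Gata4-higher regions in all. No Tbx5-higher region lacked Gata4 reads altogether. Chromosome 7, 96476312 to 96476521, had 60, 57.5 and 61.6 CPM for Gata4 alone, at least 24.7-fold higher than Tbx5 alone against a floor of 3 reads over the group (adjusted p = 2.11e-09). With all 3 factors it had 19.5 ± 2.89 CPM for Gata4 and 8.54 ± 2.79 CPM for Tbx5. Chromosome 11, 49016076 to 49016281, had 53.8, 50.8 and 37.4 CPM for Gata4 alone, at least 19.8-fold higher, and 25.6 ± 3.17 CPM for Gata4 and 8.2 ± 2 CPM for Tbx5 with all 3 factors. Chromosome 11, 4787550 to 4787750, had 29, 33.8 and 30.8 CPM for Gata4 alone, at least 13-fold higher, although its own input was at 23.5 CPM and its levels with all 3 factors were 6.75 ± 6.82 CPM for Gata4 and 4.53 ± 1.93 CPM for Tbx5.

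The regions with the largest folds all kept their direction and call with all 3 factors, while the size changed at some. Chromosome 11, 104829799 to 104830074, had 195 ± 42.5 CPM for Gata4 and 5.13 ± 3.74 CPM for Tbx5 with all 3 factors, a log2 fold change of 5.21 ± 0.33 there (adjusted p = 6.21e-11) and an interaction of 0.21 ± 0.78 (adjusted p = 0.895). By contrast, levels at chromosome 5, 107876951 to 107877176, were 51.7 ± 22.4 CPM for Gata4 and 10.4 ± 2.86 CPM for Tbx5, and its interaction of 3.18 ± 0.63 passed the test (adjusted p = 0.000514). Of the 8 Gata4-higher regions of the largest-fold ranking, 8 were called in the same direction with all 3 factors and 5 had an interaction, and of the 8 Tbx5-higher ones 8 and 8. Of the 5 tallest Gata4 sites none had an interaction past the threshold, at log2 values of 1.21 ± 0.49 or less in the first 3, and of the 5 tallest Tbx5 sites 5 had one.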

How the data were processed

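The deposited table held raw read counts per region for every library. Reads were aligned with Bowtie2 2.2.4 to mm9 and counted with featureCounts after FastQC, per the submitters' processing notes. How the regions were chosen is not given in the sources used here. Counts were tested as deposited with edgeR 4.0.16 in R 4.3.3: TMM scaling, a filter of at least 10 reads in a group's worth of libraries and 15 in all (filterByExpr), a robust quasi-likelihood fit, Benjamini-Hochberg adjustment over all tested regions, and glmTreat for differences beyond 2-fold. Intervals of like regions came from limma-trend 3.58.1 on log2 CPM with a prior count of 2, and DESeq2 1.42.0 was an alternative. Only the compared groups entered each fit, and the interaction was fitted on all 4 groups. Poisson and binomial intervals and floors of 3 reads cover counting error only. On simulated counts for the 16987 regions of the first comparison, 86% of 4-fold and 27% of 2-fold changes were recovered, with 4.24% false calls. Only 200 regions were changed there, whereas 83.2% of the tested regions were called in the data. These rates therefore do not measure the error of the 14132 calls.

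Regions were named by rule, chromosome 18 apart: the 8 largest folds in each direction among called regions above the median level with groups that do not overlap, the 5 highest levels in each direction, the 5 highest uncalled regions with an interval within -1 and 1, and the 3 largest interactions in each direction, with full values for the first 3 of each. Gata4 alone 4 was kept out of the fits. Members, rules and lists were chosen with earlier results of these data known. Replicate numbers alone did not pair the samples, since same-numbered Gata4 and Tbx5 libraries correlated at 0.0053, 0.039 and -0.037 in their deviations from the group means. With all 3 factors they did, at 0.33, 0.19, 0.44 and 0.43 for numbers 2 to 5. Motifs and gene positions were planned but not analysed here, since no genome or annotation of the build was used.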

Additional observations from a re-analysis of the deposited data

Results flagged for a closer look

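Values of single libraries far from the rest of their group were looked for in 62 groups and found in 9, and chance alone flags about 1 group in 20. Gata4 alone 4 accounted for 5 of them. It had 35.9 CPM at chromosome 5, 107876951, where the other Gata4 alone libraries had 196 to 226 CPM, and 22.4 CPM at chromosome 7, 96476312, where they had 57.5 to 61.6 CPM. It had 49.4 CPM at chromosome 9, 42811977 (others 2.2 to 4.14 CPM), 40.4 CPM at chromosome 3, 95346127 (others 2.07 to 4.4 CPM), and 13.5 CPM at chromosome 6, 117633609 (others 1.69 to 2.2 CPM). It was thus low at Gata4-higher and high at Tbx5-higher regions. With all 3 factors, Gata4 library 2 had 20.4 CPM at chromosome 3, 95346127 (others 9.56 to 12.4 CPM) and 19.2 CPM at chromosome 6, 117633609 (others 5.11 to 8.85 CPM). The sum of Gata4 libraries 1 and 6 had 425 CPM at chromosome 3, 151692117 (others 321 to 350 CPM), and Tbx5 library 5 had 11.2 CPM at chromosome 11, 49016076 (others 6.89 to 7.42 CPM).

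The contrast of Gata4 with Tbx5 differed between cells with 1 factor and cells with all 3 by edgeR's interaction test, higher alone at 1857 regions and lower alone at 2151. Among named regions the log2 interaction was 3.28 at chromosome 5, 107457679, and 3.18 at chromosome 5, 107876951. It was 7.4 at chromosome 7, 96476312, 7.07 at chromosome 11, 4787550, and 6.77 at chromosome 11, 49016076, all with no Tbx5 read alone, so these fitted values depend on the prior count. It was -5.41 at chromosome 9, 42811977, -3.3 at chromosome 3, 95346127, and -3.24 at chromosome 7, 4905310. It was -3.13 at chromosome 2, 166224596, -4.42 at chromosome 17, 73371686, and -2.25 at chromosome 15, 38496672. It was -4.76 at chromosome 6, 117633609, and -4.66 at chromosome 5, 35963704.

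The regions of the Y chromosome, outside the tests, summed to 284 CPM in Gata4 alone 2 and 260 CPM in Gata4 alone 3, above the 62.6 CPM of their own input.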

How the results depend on the processing

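For Gata4 against Tbx5 alone, the count of regions called stayed within 1.5 times of 14132 in these settings. It was 13174 with DESeq2, 14235 with library totals, 14112 with limma-trend and 16671 with no filter, the last among 30815 regions. It was 13951 with a fit of all 6 ChIP groups, 13397 with Gata4 alone 4 kept and 14144 to 15420 with each library left out. Relative to own input it was 3708, with 1586 Gata4-higher and 2122 Tbx5-higher, and the cause was not tested. Each input was 1 library, so the spread between inputs could not enter the fit relative to own input. Its counts therefore do not show how many calls hold relative to input, and no conclusion is drawn from them. With the replicate block 14082 were called. With all 3 factors the replicate block gave 14847 in place of 12500, libraries 1 and 6 kept apart 13184 (chosen after seeing the data), and leaving out each sample 11454 to 12659. For the interaction, 6508 were called with the replicate block, 1265 with Gata4 alone 4 kept and 2635 to 5134 with each library left out, in place of 4008. With TMM-scaled CPM, ChIP over own input was 3.18 for Gata4 and 0.721 for Tbx5 at Gata4-higher regions (2.34 and 0.422 unscaled), 1.72 and 1.69 at uncalled regions (1.27 and 0.989), and 0.854 and 4.24 at Tbx5-higher regions (0.63 and 2.48). Lists of the top 5% and top 20% of regions, chosen after seeing the data, shared 7.07% and 20.4% alone and 37.1% and 46.2% with all 3 factors. Of the 35 named regions, no called one changed sign in any setting run (3 of the 5 uncalled ones did). DESeq2, library totals, no filter and the block changed no call among them. Leaving out a library changed the call at chromosome 1, 23539944, and at chromosome 15, 95761736, and limma-trend changed it at the latter. At some named regions the fold was much smaller relative to own input, as given above. Calls at the named regions are not counted for that setting, since each input was 1 library. Inputs of 97474 and 127871 counts limit every value relative to input, and the lower group rested on 1 to 3 reads at 228 Gata4-higher and 30 Tbx5-higher regions. Simulated 2-fold interactions were recovered at 0% and 4-fold ones at 35%, with 200 regions changed.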
